A study of Homo sapiens with 12 samples.

Results

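The super-enhancer-like H3K27ac domains are the 500 broadest clusters of H3K27 acetylation in control Huh7 cells, a human hepatocellular carcinoma line. They were chosen from the control H3K27ac peak list alone. Of its 64460 peaks on chromosomes 1 to 22 and X, 25333 were at least 500 bp wide, and these were joined where the gap between them was 12.5 kb or less. This gave 16335 stitched domains, of which the 500 with the largest summed peak width were kept. The summed width therefore chose the members and is given only to describe them.

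The series holds 12 ChIP-seq libraries, 1 per condition and antibody, each given as a list of peaks. VPS72-overexpressing cells were infected for 24 h with a lentivirus that carries FLAG-tagged VPS72, and control cells were infected for 24 h with the lenti-HA virus, which the design text calls an empty vector. In both, the cells' own VPS72 gene also carries a knocked-in FLAG tag behind its last codon, so the FLAG antibody has a tagged target in control cells too. The antibodies were against H3K27ac, H3K4me1, the histone variant H2A.Z, its acetylated form (H2A.Zac) and the FLAG tag, and each condition has an input library.

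H3K27 acetylation marks active promoters and enhancers, and H3K4 monomethylation marks enhancers whether active or primed. Broad clusters of H3K27ac, often called super-enhancers, tend to lie at genes that define a cell type and at highly expressed genes. H2A.Z is a histone variant found at the nucleosomes beside active promoters and at enhancers, and VPS72 (also called YL1) is the H2A.Z-binding subunit shared by the SRCAP and TIP60 remodelling complexes, which place H2A.Z in chromatin. Acetylated H2A.Z is associated with active genes.

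Starts of genes for proteins that hepatocytes secrete lay in some of the domains. The domain of rank 9 held the starts of FGB, FGA and FGG, the fibrinogen chains, the domain of rank 28 held the start of ALB (albumin), and the domain of rank 85 held that of AFP (alpha-fetoprotein). Below are the RefSeq promoters of AFP and of 3 other liver genes whose starts lay in domains, APOA2 (rank 410), NR5A2 (rank 240) and FOXA3 (rank 25), chosen because each holds a motif that was searched for. Each run is the 250 bases before the gene's start in the gene's own direction. Its coordinates are of GRCh38.p14, while every other position in the text is of hg19. Capitals mark TATAAA, the letters of the TATA box, in AFP, NR5A2 and FOXA3, TGTTTAC in APOA2 and TGANTCA in NR5A2 and FOXA3. Matches were taken on either strand and anywhere in the run. In NR5A2 TATAAA reads on the opposite strand and lies far from the start.

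AFP (chr4:73435971-73436220, plus strand): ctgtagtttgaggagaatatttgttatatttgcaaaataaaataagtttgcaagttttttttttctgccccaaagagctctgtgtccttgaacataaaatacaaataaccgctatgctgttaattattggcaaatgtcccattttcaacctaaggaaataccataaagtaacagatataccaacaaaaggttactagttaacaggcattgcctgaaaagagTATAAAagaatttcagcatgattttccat
APOA2 (chr1:161223629-161223878, minus strand): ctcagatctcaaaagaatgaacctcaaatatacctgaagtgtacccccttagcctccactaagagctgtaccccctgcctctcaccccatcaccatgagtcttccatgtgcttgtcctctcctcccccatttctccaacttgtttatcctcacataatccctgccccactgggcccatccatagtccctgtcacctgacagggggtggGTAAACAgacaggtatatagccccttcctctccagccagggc
NR5A2 (chr1:200027460-200027709, plus strand): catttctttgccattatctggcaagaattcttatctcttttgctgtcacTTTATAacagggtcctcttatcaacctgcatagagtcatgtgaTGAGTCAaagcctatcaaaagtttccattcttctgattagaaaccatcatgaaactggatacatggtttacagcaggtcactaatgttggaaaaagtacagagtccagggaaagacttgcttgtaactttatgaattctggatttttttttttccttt
FOXA3 (chr19:45864076-45864325, plus strand): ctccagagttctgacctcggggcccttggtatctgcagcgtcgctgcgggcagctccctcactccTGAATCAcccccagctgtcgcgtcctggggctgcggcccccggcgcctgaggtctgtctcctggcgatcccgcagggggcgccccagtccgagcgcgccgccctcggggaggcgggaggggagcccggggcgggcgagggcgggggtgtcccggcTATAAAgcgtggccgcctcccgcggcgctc

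Besides TATAAA, the letters searched on both strands were TGTTTAC for the FOXA factors, TGANTCA for AP-1 and, for one arm of the cyclic AMP response element, TGACGT. Of 42 listed genes whose start a domain held, 30 had a promoter in the table. TATAAA stood in 6 of these 30 (20%), against 11.1% of 27305 RefSeq promoters, and the FOXA motif in 1 of 30 (3.33%), against 2.98%. The AP-1 motif was found in 2 of 30 (6.67%), against 6.60% of all promoters, and TGACGT in 1 of 30 (3.33%), against 7.42%. These are letters in a window and not measured binding sites.

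Domains also held microRNAs. MIR21, at the end of VMP1, lay in the domain of rank 15, and MIR196B lay in the domain of rank 1 among the HOXA genes. The mature sequences are given because these are short products of the loci themselves, with the seed (bases 2 to 8) in capitals; the seeds differ.

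hsa-miR-21-5p: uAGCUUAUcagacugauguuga
hsa-miR-196b-5p: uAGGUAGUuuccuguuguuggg

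The 500 domains spanned 12.5 Mb in all and held 14.9% of the summed width of the stitched domains. A domain held 1 to 17 constituent peaks with a median of 5, and 467 of the 500 held 3 or more. Among the other 15835 stitched domains, 70.7% were a single peak. Spans ran from 6.88 to 90.8 kb with a median of 22.8 kb, and summed widths from 6.77 to 28.4 kb with a median of 8.84 kb. At the threshold, the last 5 domains kept had summed widths of 6793, 6793, 6779, 6775 and 6772 bp, and the first 5 left out had 6771, 6763, 6750, 6750 and 6731 bp, so the limit falls in a smooth series. Chromosome 1 held 61 domains, chromosome 19 held 32, chromosome X held 9 and chromosome 21 held 4.

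The hepatocyte markers fitted the labelled cell type in part. Of 9 hepatocyte markers, 5 (ALB, AFP, APOA1, APOB and FGB) had their start in a domain. HNF4A, which encodes a nuclear receptor that directs hepatocyte genes, overlapped a domain with its body. The start used for HNF4A lay 36.6 kb from the nearest domain, and other starts within a gene were not examined. SERPINA1 (alpha-1 antitrypsin) had an H3K27ac peak within 2 kb of the start in both conditions but was in none of the 500. TTR (transthyretin) had no H3K27ac peak within 2 kb in either list. Of 13 markers of blood, muscle, endothelial, fibroblast, pancreatic, prostate and stem cells, 0 had a start in a domain. Of those 13, 1 had an H3K27ac peak within 2 kb in overexpressing cells (DES, 243 bp wide) and 0 in control cells.

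The 10 largest domains included the HOXA cluster, the APOE cluster, CEBPA and the fibrinogen genes. Genes named at them that were on no gene list were chosen after the values were seen. Each domain is described below by its covered share, the percentage of its span under peaks with a q of 0.05 or less, and by its summit height, the number of reads at its tallest summit as a multiple of the genome average of that library. There was 1 library per condition and antibody, so no difference between conditions has a replicate check, and intervals cover counting error only. A lower mark in every cell and a mark lost in some cells cannot be told apart.

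Rank 1, at chr7:27135209-27225972 (7p15.2), held HOXA2, HOXA5, HOXA7, HOXA9 and HOXA11, homeobox factors that pattern the body axis. It had 17 constituents over 90.8 kb. H3K27ac covered 28.1% of it in overexpressing cells and 31.4% in control cells. H2A.Z covered 17.1% in overexpressing cells and 22.9% in control cells, and H2A.Zac covered 26.8% and 34.5% in the same order of conditions. H3K4me1 covered 15.5% with overexpression and 1.60% in control. The cluster thus differed from the next 9 domains, where H2A.Z covered between 0% and 5.91% with overexpression and between 0% and 15.5% in control.

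Rank 2, at chr19:45393295-45459596 (19q13.32), held TOMM40, APOE, APOC1, APOC4 and APOC2. APOE is a ligand by which lipoproteins are taken up, and APOC2 activates lipoprotein lipase. H3K27ac covered 29.5% in overexpressing cells and 37.1% in control cells. H3K4me1 covered 46.2% with overexpression and 19.2% in control, and H2A.Zac covered 9.50% with overexpression and 18.3% in control. H2A.Z reached 0% with overexpression and 0.383% in control, so this broad domain had nearly no H2A.Z peak of that limit.

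Rank 8, at chr19:33763894-33808326 (19q13.11), held CEBPA, a leucine zipper factor that drives hepatocyte genes. Its H3K27ac summit stood at 38.7 times the genome average with overexpression and 59.8 times in control. H2A.Zac stood at 8.51 times with overexpression and 23.2 times in control, a ratio of 0.367, the lowest among the 10 largest domains. H3K4me1 stood at 19.5 times with overexpression and 12.3 times in control. The acetyl marks were lower and H3K4me1 higher with overexpression at this locus.

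Rank 9, the fibrinogen locus at chr4:155471004-155540040 (4q31.3), was covered by H3K27ac over 22.3% in overexpressing cells and 31.4% in control cells. H3K4me1 covered 35.0% with overexpression and 6.21% in control. H2A.Z covered 1.33% with overexpression and 1.94% in control, all of it at the lower-coordinate edge of the domain. H2A.Zac covered 1.68% with overexpression and 3.99% in control.

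**Figure D1:**
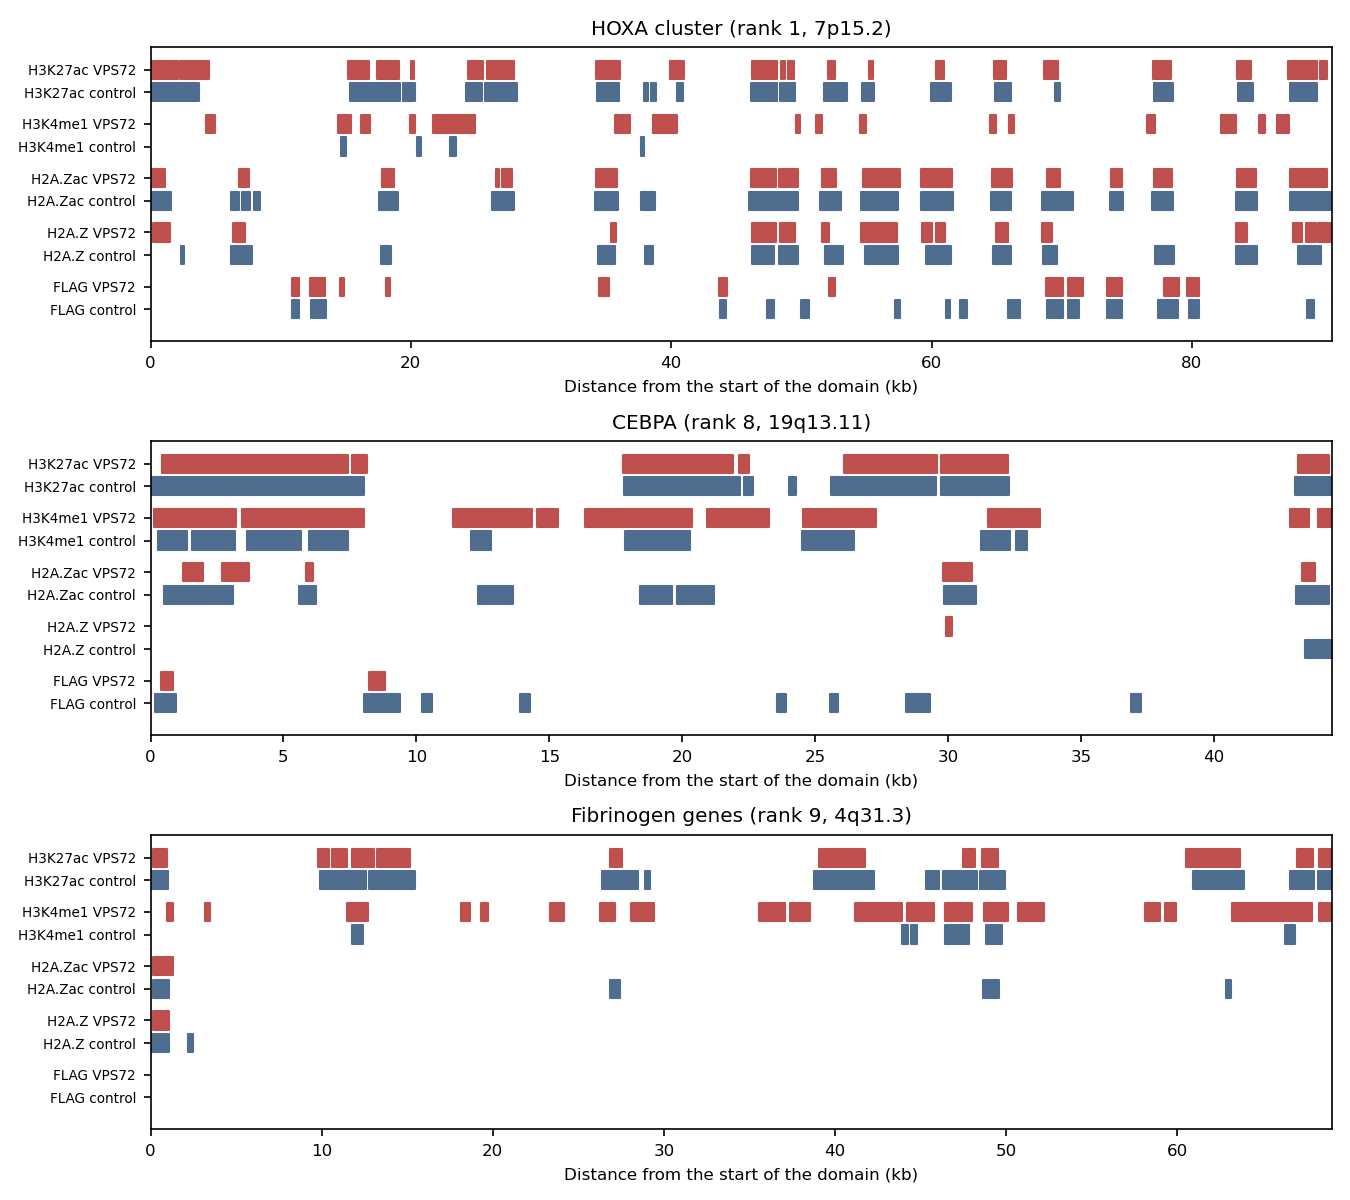
Peaks with a q of 0.05 or less along 3 domains, with distance from the start of the domain in kb on the x axis and 1 row for each of the 10 ChIP lists (red, VPS72 overexpression; blue, control). H2A.Z and H2A.Zac peaks run through the HOXA cluster, lie at few places of the other domains, and H3K4me1 peaks take up more of each span with overexpression.

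The other 6 of the 10 largest domains were rank 3 at 7q32.3 and rank 5 at 1q42.3, at which no gene is named, rank 4 at MMD (17q22), rank 6 at ATP5D, MIDN, CIRBP and EFNA2 (19p13.3), rank 7 at BCL2L1, an inhibitor of apoptosis (20q11.21), and rank 10 at NAB2, STAT6 and LRP1 (12q13.3). Over these 6, H3K27ac covered 24.2% to 61.4% with overexpression and 27% to 70.1% in control. H3K4me1 covered 30.3% to 81.2% with overexpression and 5.71% to 55.0% in control. FLAG peaks were found in rank 6, where they covered 14.4% with overexpression and 23.9% in control, and in rank 10 in control, where they covered 1.78%; the remaining 4 had none of that limit in either condition.

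Of 163 listed genes, 142 had a usable hg19 place, and the 500 domains held the starts of 42 of them in 38 domains. The lists of liver transcription factors (10 of 19, in 10 domains) and apolipoproteins (6 of 8, in 4 domains) had the highest shares. Over all listed genes used, the share was 29.6%. The share over all gene starts was not computed, so the lists can only be set beside each other. Secreted liver proteins had 7 of 24, in 5 domains, and tumour and fetal genes 5 of 20. For SREBF1, SREBF2, MTOR, ATF3 and other nutrient and stress response genes it was 3 of 9, and for lipid enzymes 3 of 15. Early response and TGF-beta targets gave 4 of 17 and highly active genes 4 of 17. Starts that lay in any stitched domain numbered 110 of 142.

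**Figure D2:**
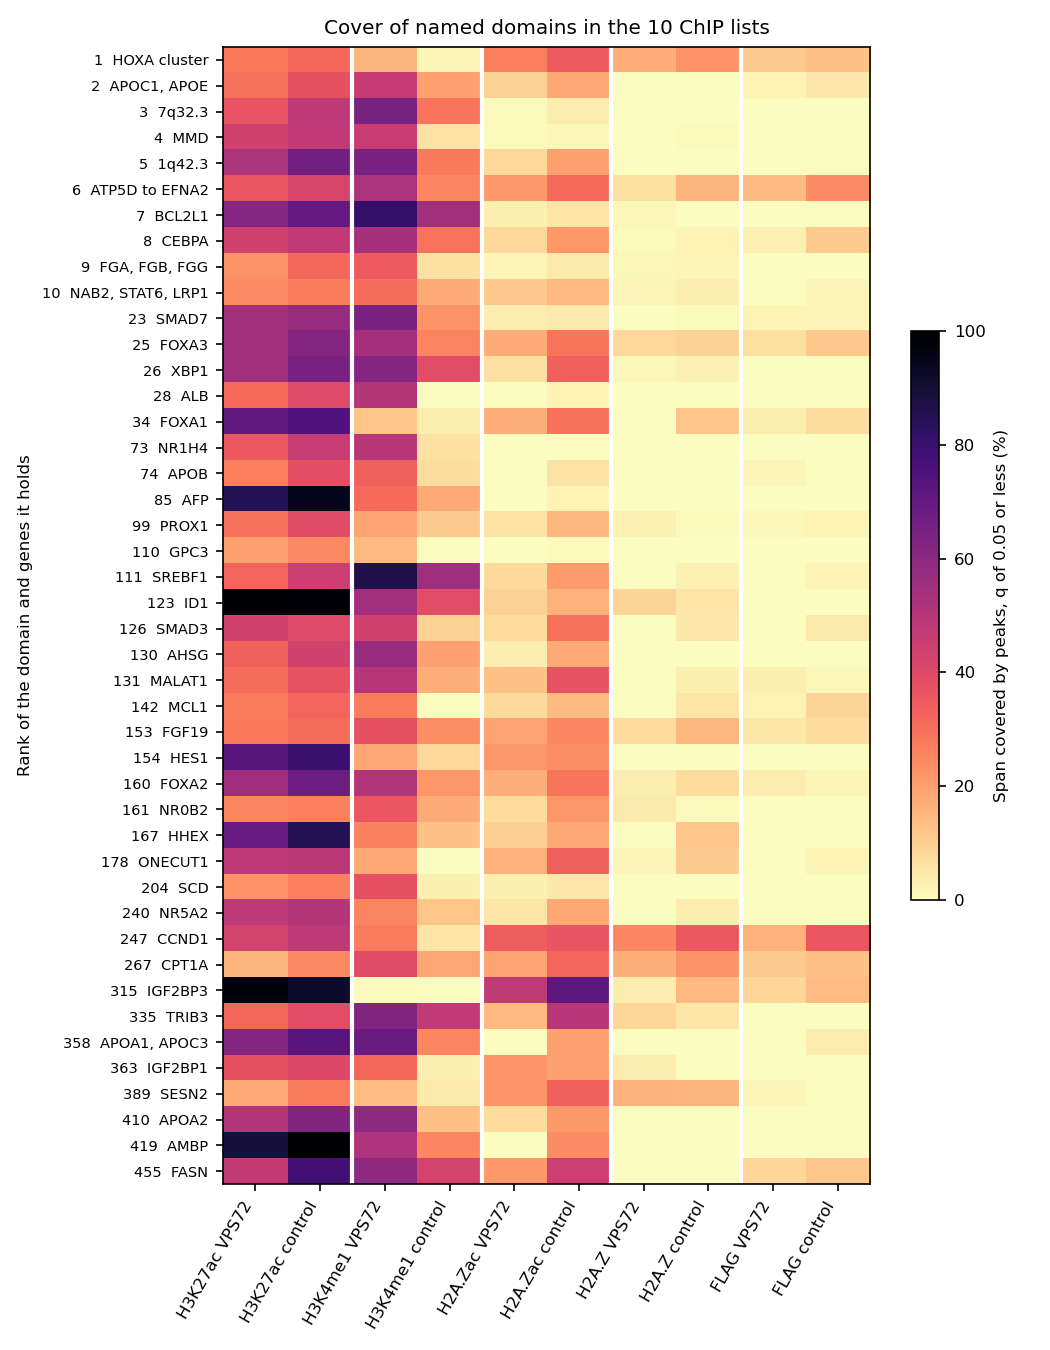
Share of the span covered by peaks with a q of 0.05 or less, as colour from 0% to 100%, in the 10 largest domains and in every domain that holds the start of a listed gene (rows, by rank), for the 10 ChIP lists (columns, VPS72 overexpression left of control for each antibody). H3K4me1 is darker with overexpression in nearly every row, H2A.Zac is paler in most rows, and H2A.Z cover is highest in the CCND1 row in control (35.2%) and in overexpressing cells (24.9%).

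Liver transcription factors held domains at ranks 8 (CEBPA), 25 (FOXA3), 34 (FOXA1), 73 (NR1H4), 99 (PROX1), 160 (FOXA2), 161 (NR0B2), 167 (HHEX), 178 (ONECUT1) and 240 (NR5A2). FOXA1, FOXA2 and FOXA3 are pioneer factors that open liver enhancers. At FOXA1 (chr14:38052197-38072666), H3K27ac covered 70.4% with overexpression and 75.4% in control, and H2A.Z covered 0% with overexpression and 12.3% in control. At FOXA3 (chr19:46365423-46390748), H3K27ac covered 54.7% with overexpression and 61.9% in control, and H2A.Z covered 8.04% and 9.23% in the same order of conditions. At FOXA2 (rank 160), H3K27ac covered 55.2% with overexpression and 67.7% in control, and H2A.Z covered 3.47% with overexpression and 7.04% in control. H3K27ac and H2A.Z cover were thus lower with overexpression at these 3 domains, with the smallest H2A.Z difference at FOXA3.

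NR1H4 encodes the bile acid receptor FXR. Its domain (chr12:100856213-100883381) was covered by H3K27ac over 35.2% with overexpression and 46.0% in control, and by neither H2A.Z nor H2A.Zac at that limit in either condition. Its H3K4me1 cover was 49.4% with overexpression and 6.05% in control. PROX1, a homeobox factor of liver development, had its start in rank 99, and its body overlapped a further domain, rank 49 (chr1:214191567-214225923). Rank 49 stood at rank 804 in the overexpression list, and its H3K27ac cover was 24.3% with overexpression and 39.8% in control.

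Among secreted proteins, the ALB domain (chr4:74240662-74276917) had H3K27ac over 30.9% with overexpression and 39.8% in control. Its H3K27ac summit was 19.1 times the genome average with overexpression and 19.8 times in control, a ratio of 0.967, so its height was closer to control than at most domains. H3K4me1 covered 50.6% of it with overexpression and 0% in control, where its summits passed only as deposited. The AFP domain (chr4:74295456-74308633) was 2 peaks that nearly filled it, with H3K27ac over 85.2% with overexpression and 94.7% in control. AHSG (fetuin-A, rank 130) and AMBP (the precursor of alpha-1-microglobulin and bikunin, rank 419) followed, with H3K27ac over 33.0% and 89.0% with overexpression and 43.2% and 100% in control. H2A.Z had no peak of that limit at any of these 4 domains in either condition.

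Apolipoprotein genes held 4 domains. APOB (rank 74, chr2:21263729-21294994), the structural protein of very low density lipoprotein, had H3K27ac over 26.6% with overexpression and 38.0% in control. APOA1 and APOC3 share the domain of rank 358 (chr11:116697857-116708874), where H3K27ac covered 62.0% with overexpression and 72.8% in control and H2A.Zac covered 0% and 19.9% in the same order. APOA2 (rank 410) had H3K27ac over 50.6% with overexpression and 62.5% in control. In the overexpression list the APOB domain ranked 181. The APOA1 domain ranked 145 there, as part of a longer stitched region of 29.7 kb with 6 constituents, so its rank is not that of the same stretch.

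Of the nutrient and stress response genes, SREBF1, TRIB3 and SESN2 had their starts in domains. SREBF1 (rank 111, chr17:17721665-17744245), which encodes an activator of fatty acid synthesis, had H3K4me1 over 85.9% with overexpression and 55.6% in control, and H3K27ac over 32.2% with overexpression and 45.0% in control. TRIB3 (rank 335) had H2A.Zac over 14.5% with overexpression and 49.8% in control. SESN2 (rank 389) ranked 668 in the overexpression list, with H3K27ac over 17.5% with overexpression and 27.5% in control. The start of ATF3 was in no stitched control domain.

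The 3 lipid enzyme domains ranked lower in the overexpression list, as did 271 of all 500 domains (54.2%). SCD (rank 204), which desaturates fatty acids, ranked 578 there, CPT1A (rank 267), which carries fatty acids into mitochondrial oxidation, ranked 1537, and FASN (rank 455), the fatty acid synthase, ranked 1391. At FASN (chr17:80053474-80062507) H3K27ac covered 46.6% with overexpression and 78.3% in control, with summits at 21.9 times the genome average with overexpression and 32.6 times in control. The local background at CPT1A was 2.55 times the genome average with overexpression and 2.64 times in control, as at the neighbouring 11q13.3 domains of FGF19 and CCND1, where it was 2.39 and 2.28 times with overexpression and 2.65 and 2.82 times in control.

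Tumour and fetal genes held domains at ranks 110 (GPC3), 153 (FGF19), 247 (CCND1), 315 (IGF2BP3) and 363 (IGF2BP1), and these 5 ranked higher in the overexpression list, at 75, 79, 159, 170 and 186, as did 227 of all 500 domains (45.4%). Within the control domain, H3K27ac cover was nevertheless lower with overexpression at 4 of the 5: 19.5% against 24.5% in control at GPC3, 27.9% against 30.5% at FGF19, 42.5% against 47.8% at CCND1 and 37.2% against 40.3% at IGF2BP1. GPC3 (glypican-3) is a surface marker of hepatocellular carcinoma, and IGF2BP1 and IGF2BP3 are fetal RNA-binding proteins. The IGF2BP3 domain (chr7:23506748-23515448) had H3K27ac over 97.4% with overexpression and 92.1% in control, but a summit of 28.4 times the genome average with overexpression and 39.0 times in control. Rank by width and height thus moved in different directions there. H3K4me1 covered 0.448% of it with overexpression and 0% in control.

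Early response and TGF-beta target genes held domains at ranks 23 (SMAD7), 123 (ID1), 126 (SMAD3) and 154 (HES1). SMAD3 carries TGF-beta signals to the nucleus and SMAD7 inhibits them. The SMAD3 domain (chr15:67334117-67360787) was among the 10 whose H3K27ac cover was highest relative to control, with 43.2% under overexpression and 39.7% in control, while its H2A.Zac cover was 7.37% with overexpression and 29.3% in control. Of the active genes, BCL2L1 (rank 7), XBP1 (rank 26), MALAT1 (rank 131) and MCL1 (rank 142) had their starts in domains. The tallest H3K27ac summit of these 4 was at XBP1, a factor of the unfolded protein response, with 73.7 times the genome average under overexpression and 99.9 times in control.

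All 10 ChIP lists were then set on the 500 domains. A peak with a q of 0.05 or less was counted where it overlapped a domain by at least 1 bp. H3K27ac peaks lay in 500 of 500 domains in both conditions. Over all 16335 stitched domains the share with one was 80.7% with overexpression and 89.9% in control. The domains were chosen from the control list, so its own count is no result.

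Of the antibodies, H3K4me1 had the widest gap between the 500 domains and the other stitched domains. It was present in 99.8% of domains with overexpression (499 of 500, Wilson 95% interval 98.9% to 99.96%) and in 89.0% in control (85.9% to 91.5%). Over all stitched domains the shares were 51.6% and 24.8%, in the same order of conditions. The next 500 domains by rank had 95.2% with overexpression and 75.4% in control. A domain of longer span can hold a peak more easily, and the comparison at matched peak width is given below.

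H2A.Zac was present in 82.2% of domains with overexpression (78.6% to 85.3%) and 95% in control (92.7% to 96.6%), against 71.3% and 83.7% over all stitched domains. H2A.Z was present in 38.8% with overexpression (34.6% to 43.1%) and 59.2% in control (54.8% to 63.4%), against 36.7% and 49.4% over all stitched domains. FLAG peaks were present in 39.4% with overexpression (35.2% to 43.7%) and 47.4% in control (43.1% to 51.8%), against 14.4% and 20.8% over all stitched domains. As deposited, without a limit on q, the order of FLAG turned round, with 81.8% with overexpression and 68.8% in control. H2A.Z was thus near its level over all stitched domains with overexpression, although the 500 domains are far longer. The input lists had a peak of that limit in 0 of 500 domains in both conditions.

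**Figure D3:**
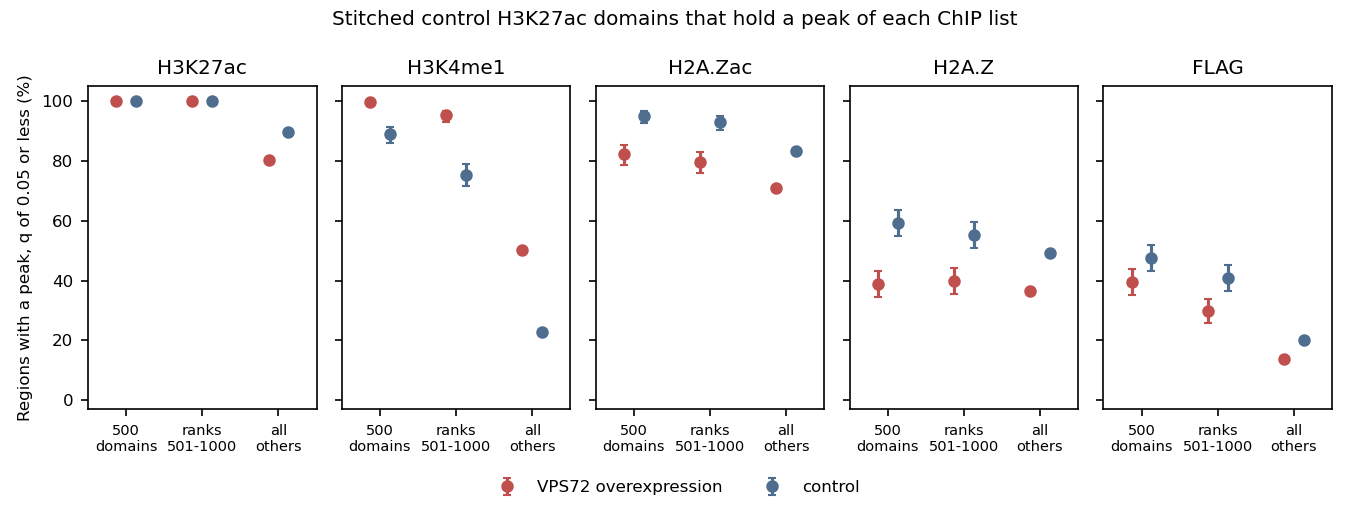
Percentage of stitched control H3K27ac domains holding at least 1 peak with a q of 0.05 or less (y axis), for the 500 domains, the next 500 by rank and all 15835 others (x axis), in 1 panel per antibody, with Wilson 95% intervals (red, VPS72 overexpression; blue, control). H3K4me1 runs from 99.8% down to 50.1% with overexpression and from 89.0% down to 22.7% in control, while H2A.Z stays between 36.7% and 39.8% with overexpression.

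Cover gives the same lists by length. H3K27ac covered 31.3% of the span of the 500 domains with overexpression and 38.2% in control. H3K4me1 covered 40.5% with overexpression and 14.6% in control, and H2A.Zac covered 9.33% with overexpression and 17.2% in control. H2A.Z covered 2.31% with overexpression and 4.43% in control, and FLAG covered 2.66% with overexpression and 4.22% in control. H3K4me1 covered more of the span than H3K27ac in 321 of the 500 domains with overexpression and in 25 in control. All 4 histone marks were present in 192 domains with overexpression and in 261 in control, and no H3K4me1 was present in 1 domain with overexpression and in 55 in control.

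The H2A.Z lists and H3K4me1 lay in different places within a domain. Constituent peaks made up 39.5% of the span and the gaps between them the rest. Of the covered length, 84.3% of H2A.Z lay on constituents with overexpression and 83.2% in control, and 89.8% of H2A.Zac lay there with overexpression and 86.0% in control. For H3K4me1 it was 50.2% with overexpression and 64.8% in control, and H3K4me1 covered 33.4% of the gaps with overexpression and 8.47% in control. FLAG showed no preference for constituents, with 35.3% of its length on them with overexpression and 35.4% in control, both below the 39.5% that they make up.

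Constituents of the 500 domains were compared with the other control H3K27ac peaks of at least 500 bp in classes of like width, since membership depends on width. The 2640 constituents carried H3K4me1 more often and H2A.Z less often than the 22693 other peaks. In control, H3K4me1 touched 45.6% of constituents (43.7% to 47.5%) and 19% of other peaks (18.5% to 19.5%). H2A.Z touched 20.6% of constituents (19.1% to 22.2%) and 38.6% of other peaks (38.0% to 39.3%), and H2A.Zac touched 57.6% of constituents (55.7% to 59.4%) and 74.3% of other peaks (73.7% to 74.8%). The intervals did not overlap in any of the 4 width classes for these 3 marks in either condition.

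Among the peaks 1 to 2 kb wide, H2A.Z touched 17.1% of 831 constituents with overexpression and 35.9% of 8235 other peaks, and in control it touched 24.3% of constituents and 47.5% of other peaks. Among those 3 kb or wider, H2A.Zac touched 56.0% of 461 constituents with overexpression and 72.5% of 788 other peaks. In control it touched 78.5% of constituents and 89.6% of other peaks. FLAG touched 7.42% of constituents with overexpression (6.48% to 8.49%) and 8.97% of other peaks (8.60% to 9.35%), and 11.4% of constituents and 14.1% of other peaks in control. The share of constituents touched was below that of other peaks for FLAG as well, by less than for H2A.Z. Peaks of 1 library share their depth and neighbours share a domain, so the intervals are no test between independent samples. How many of either kind lie at gene starts was not analysed here.

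**Figure D4:**
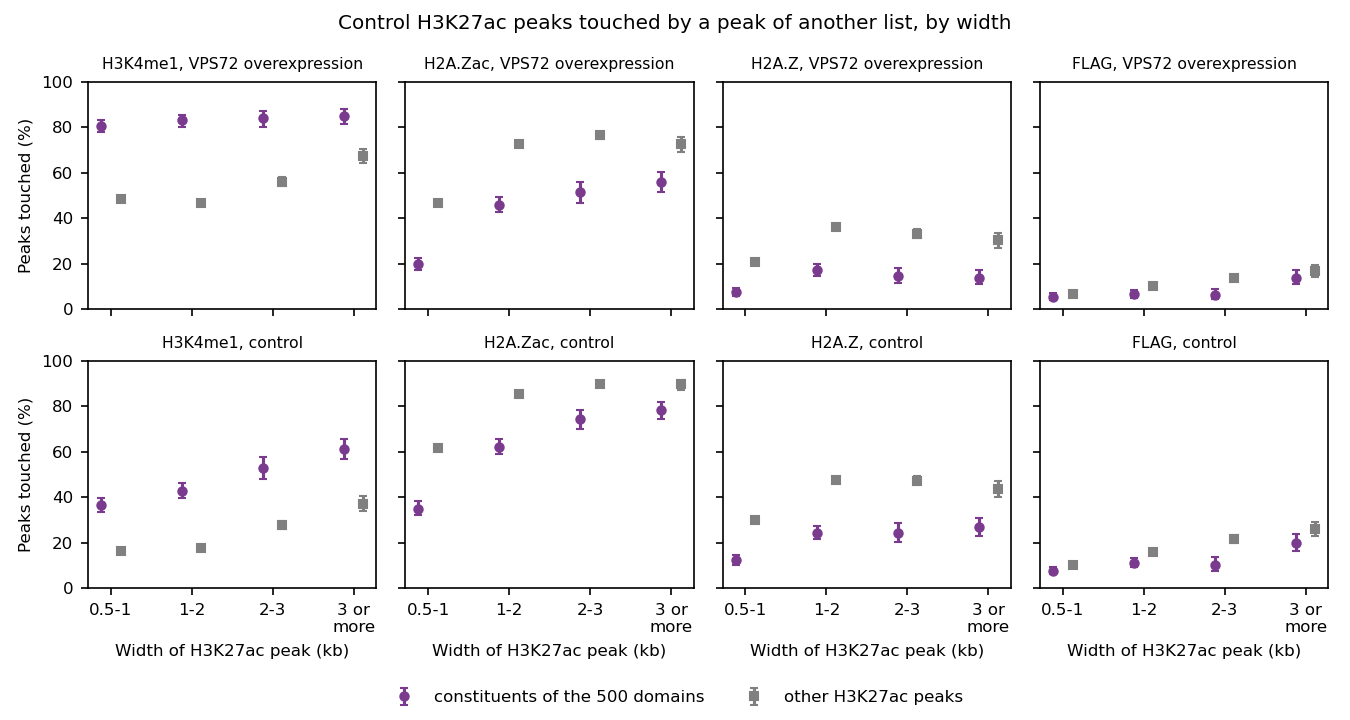
Percentage of control H3K27ac peaks touched by a peak of another list with a q of 0.05 or less (y axis), by width of the H3K27ac peak in kb (x axis), for constituents of the 500 domains (purple circles) and other H3K27ac peaks (grey squares), with Wilson 95% intervals. H3K4me1 is higher on constituents in all 4 classes of both conditions, and H2A.Zac and H2A.Z are lower.

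Between conditions, the domains had less H3K27ac and H2A.Zac and more H3K4me1 with overexpression. By summit height the amounts were close to those at the other stitched domains, and by covered length they were not for every mark. The H3K27ac summit was higher with overexpression in 15 of 500 domains (3.00%), against 10.2% of 14627 stitched domains with a peak in both lists. The median ratio of heights, overexpression over control, was 0.743 over the 500 and 0.752 over the other 14127. A summit lower by 1.5 times or more was found in 110 domains (22%), against 28.8% of all stitched domains. The spread was thus narrower in the 500, which hold the taller summits, and the middle was close to that of the rest.

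For H3K4me1 the summit was higher with overexpression in 451 of 490 domains with a peak in both lists (92.0%), against 84.3% over all stitched domains. The median ratio was 1.29 over the 500 domains and 1.27 over the others, and 91 domains (18.6%) were higher by 1.5 times or more, against 23.7%. For H2A.Zac the summit was higher with overexpression in 3 of 461 domains (0.651%), against 0.981%, and the median ratio was 0.560 over the 500 domains and 0.566 over the others. A loss of height by 1.5 times or more was found in 378 of the 461 (82%), against 77.6%, so most domains shared it. H2A.Z had a median ratio of 0.923 over 345 domains and 0.929 over the others, with 127 domains (36.8%) higher, against 37.8% of all stitched domains, and 40 (11.6%) lower by 1.5 times or more, against 11.6%. FLAG had a median ratio of 1.11 over 315 domains and 1.04 over the others, with 195 higher (61.9%), against 56.4%. By the authors' fold, which divides by the local background, the direction of FLAG was the other way, with a median ratio of 0.926 over the 500 domains. By summit height, FLAG was higher by 1.5 times or more in 52 (16.5%), against 20%, and lower in 30 (9.52%), against 13.4%.

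For H2A.Zac and H2A.Z, covered length differed more between the domains and the rest than height did. The H2A.Zac median ratio of covered length, overexpression over control, was 0.492 over 475 domains, 0.567 over the next 500 by rank and 0.813 over all 13202 others. A loss of 1.5 times or more was found in 343 domains (72.2%), against 36.2% of all stitched domains covered in control. For H3K4me1 the length was longer with overexpression in 498 of 500 domains (99.6%), against 49.6% of all 16335 stitched domains. Only 8427 of the 16335 held an H3K4me1 peak of that limit with overexpression. The length was longer in 8094 of these 8427, so a gain was near general wherever such a peak was present. Of 445 domains covered in control, 407 (91.5%) gained 1.5 times or more, against 71.1%. H2A.Zac was longer in 10 domains (2%), against 8.33%. H2A.Z was longer in 51 domains (10.2%), against 13.2%, and shorter by 1.5 times or more in 219 of 296 (74%), against 58.9%. FLAG was longer in 79 (15.8%), against 7.7%, and shorter by 1.5 times or more in 138 of 237 (58.2%), against 64.5%. Length was thus gained for H3K4me1 and mostly lost for the others. H3K27ac was longer in 42 domains (8.40%), against 6.22%, and shorter by 1.5 times or more in 63 (12.6%), against 31.3%, with a median ratio of 0.829 over the 500 domains and 0.805 over the others. Length was counted only within each control domain. The median control H3K27ac cover was 39.8% of span in the 500 domains and 100% in the others. Most of the others thus had little room to gain length, and their shares are not a like background for H3K27ac. The control list chose the domains; over the 500 chosen by the same rule from the overexpression list, the median was 0.939. Covered length depends on how many reads lift a peak over the q limit, so the 2 measures are given side by side. The median ratio of length was 2.89 over the 500 domains and 2.13 over the others for H3K4me1, 0.287 and 0.511 for H2A.Z, and 0.557 and 0 for FLAG. These medians count only domains covered in control. By total covered length, the H3K4me1 ratio was 2.781 in the 500 domains and 3.403 in the others, the reverse order. The FLAG ratios of total length were close, at 0.6305 and 0.6258. Those of H2A.Z were 0.5215 and 0.6166, and those of H2A.Zac 0.5412 and 0.7081, lower in the domains as by the median. For H3K4me1 and FLAG the contrast in length thus depended on the measure. H2A.Zac and H2A.Z thus had like ratios of height in the domains and the rest and lower ratios of length in the domains. The 2 measures rest on unlike sets of domains. Height needs a peak in both lists, while a domain that lost its peaks counts with a length of 0. The median control H2A.Zac cover was 17.3% of span in the 500 domains and 70.4% in the others. How much of the contrast comes from the measures was not tested. With peaks as deposited, the medians over the 500 were 1.69 for H3K4me1, 0.432 for H2A.Z and 0.881 for FLAG, and at a q of 1e-05 or less they were 4.76, 0 and 0.

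**Figure D5:**
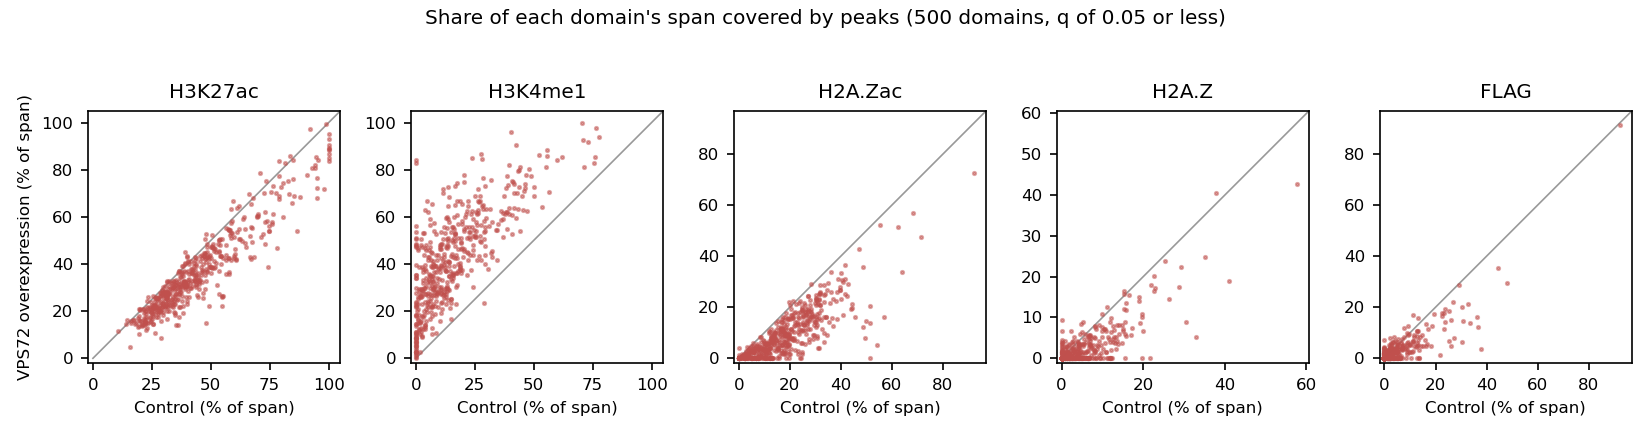
Share of the span covered by peaks with a q of 0.05 or less in each of the 500 domains, with control on the x axis and VPS72 overexpression on the y axis (%), in 1 panel per antibody, each on its own scale, and a line of equal values. Points lie below the line for H3K27ac in 458 of 500 domains, and above it for H3K4me1 in 498.

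Across the 500 domains the order of the domains was similar in both conditions. Spearman's rho of covered share between overexpression and control was 0.917 for H3K27ac, 0.739 for H3K4me1, 0.828 for H2A.Zac, 0.653 for H2A.Z and 0.728 for FLAG (n = 500 domains). Within a condition, H2A.Zac and H2A.Z went together (0.601 with overexpression, 0.581 in control), as did FLAG and H2A.Z (0.391 with overexpression, 0.426 in control). H3K4me1 and H2A.Z ran against each other weakly (-0.267 with overexpression, -0.106 in control). Domains share libraries, depth and span, so these are descriptions.

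The same rule applied to the overexpression H3K27ac list gave 16333 stitched domains, and 394 of the 500 control domains overlapped one of its top 500 (78.8%, Wilson 95% interval 75.0% to 82.2%). Over all stitched control domains the share was 3.27%. Of the 10 largest control domains, 8 were among the 10 largest of the overexpression list and the lowest stood at rank 13. The count fell with rank, at 97 of the first 100, 89, 79, 69 and 60 of the last 100. Past rank 1000 of the overexpression list were 35 control domains. The median covered ratio of H3K27ac was nevertheless close across these 5 classes of rank, between 0.812 and 0.840.

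The 10 domains with the lowest H3K27ac covered length relative to control lay between ratios of 0.293 and 0.480. The lowest was rank 262 at 10q25.2 (chr10:112154930-112186847), with H3K27ac over 8.47% with overexpression and 28.9% in control. Its summit was 11.2 times the genome average with overexpression and 9.62 times in control, so its length fell while its height did not. Rank 485 at 3q26.2 had a ratio of 0.309 and likewise a higher summit, with 11.7 times with overexpression and 11.2 times in control. Rank 452 at 2q33.3 stood at rank 8378 of the overexpression list, the lowest of the 500. H3K4me1 covered more with overexpression in 10 of these 10 domains, as in 99.6% of all 500.

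The 10 domains with the highest relative length lay between ratios of 1.07 and 1.16, and their summits between 0.655 and 0.995 of control. The highest was rank 191 at 10q23.33 (chr10:96142879-96164959), with H3K27ac over 45.1% with overexpression and 38.9% in control and summits of 26.6 and 26.7 times the genome average. The choice fixed that these 10 were longer, and a taller summit was rare among all 500 (3%). SMAD3 was the 1 listed gene among them.

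A domain with high values in more than 1 list was singled out after its values were seen. Rank 24 at Xq23 (chrX:114960444-115005370) held 16 constituents and the tallest H3K27ac summit of the 500, with 100.3 times the genome average under overexpression and 138 times in control. H2A.Z covered 42.6% of it with overexpression and 57.8% in control, the largest share of the 500 in both conditions. H2A.Zac covered 57.1% with overexpression and 68.4% in control. No gene is named there, and whether it holds repeated sequence was not examined.

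Local background moved with some results. It is the median, over the antibodies other than FLAG, of the expected reads under the peaks as a multiple of the genome average. Rank 337 at 1q42.13 (chr1:228746041-228782740) had a background of 7.65 times the genome average with overexpression and 7.64 times in control, and FLAG covered 91.2% of it with overexpression and 92.3% in control. A background of 2 or more was found in 31 domains with overexpression and 36 in control. Without the latter 36, the median ratios of height were 0.742 for H3K27ac, 1.29 for H3K4me1, 0.560 for H2A.Zac, 0.926 for H2A.Z and 1.11 for FLAG. The direction of each by height was thus the same in the other 464. Other measures differed: the ratio of total H3K4me1 length was 2.93 in the 464 and 1.80 in the 36. H2A.Z was present in 36.4% of the 464 with overexpression and 57.8% in control, and in 69.4% and 77.8% of the 36. The part of copy number or of repeated sequence in the background was not tested.

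Library depth is known from the lists in relative terms. The genome average, in reads as scaled in each list, was 0.329 per position in the overexpression FLAG library and 0.456 in the control FLAG library. It was 1.40 to 1.91 in the other 8 ChIP libraries. FLAG values at domains therefore rest on few reads. A read counted as 1 in both FLAG lists, as 0.809 in the overexpression H2A.Zac list and as 0.867 in the control H2A.Zac list. The averages are therefore not raw depths. The lists held 57951 to 551907 peaks, of which 14109 to 85651 had a q of 0.05 or less. At that limit H3K4me1 had 85651 peaks with overexpression and 20108 in control, and 4.24% and 9.15% of them lay in the 500 domains. In the same order, H3K27ac had 23861 and 27379 peaks, H2A.Zac 28331 and 40081, H2A.Z 14109 and 26099, and FLAG 46307 and 68395. For each antibody, total cover in the domains thus changed in the same direction as its whole list.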

How the data were processed

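Peaks had been called by the authors for each library separately with MACS2, per the submitters' processing notes, where BWA, Trimmomatic and FastQC are listed too, with no version. For the caller's control sample and settings, the sources used here give nothing. The deposited values are peak start and end (other), an integer score, a fold (a ratio of summit to local background), the −log10 p and −log10 q at the summit, and the summit offset. The lists were kept at a p of 0.05. Genotype labels of 5 overexpression libraries name other VPS numbers, and the titles were followed. Coordinates are hg19, 1-based; the notes name hg19 and hg38, and the lists hold contigs of a GRCh37 decoy reference. No genome was used, so domain sequences are not printed.

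Stitching, ranking and overlap were computed with Python 3.11.15, numpy and pandas. The check on 20 simulated lists recovered every domain and covered length. Summit read numbers were solved from the fold and −log10 p that the authors deposited, for at least 99.99% of peaks and divided by the genome average. Bands came from circlize 0.4.16. Gene places in hg19 were written from general knowledge and used where the length was within 10% or 2 kb of the RefSeq gene. A start, taken as the upstream end of the gene's place, counted as held within 2 kb of a domain. Named domains are the 10 largest, the 5 on either side of the threshold, those holding listed genes, and the 10 lowest and highest in relative H3K27ac length; ranks 15, 24, 49 and 337 were added after their values were seen. The members and lists were chosen with earlier results of these data known. With 1 library per group no test between conditions was made. Alternatives were other stitching and ranking rules, q limits, domains of the overexpression list and another measure of height. Some listed genes and 1 listed motif are not reported here.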

Additional observations from a re-analysis of the deposited data

Results flagged for a closer look

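The input lists were used in no comparison. As deposited, without a limit on q, the overexpression input list had a peak in 4 of the 500 domains (0.8%, Wilson 95% interval 0.312% to 2.04%) and the control input list in 1 (0.2%, 0.0353% to 1.12%). The intervals overlap. Among the other 15835 stitched domains, which are far shorter, 9 (0.0568%) and 8 (0.0505%) had one, in the same order. The authors' fold of these peaks was 1.67 to 1.94 in the overexpression input and 2.33 in the control input, and none of them had a q of 0.05 or less. One of the 4 is the APOE domain of rank 2.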

How the results depend on the processing

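Of 81 alternatives over 23 results, 44 stayed within the stated limits, 35 moved and 2 turned the direction. Ranking by span kept 297 of the 500 domains and ranking by width times fold kept 308. A stitching distance of 5000 bp kept 334, no minimum width 406, and peaks with a q of 0.05 or less only 456. These 3 counted as stayed. With peaks as deposited, shares of domains with overexpression and in control were 100% and 98% for H3K4me1, 92.2% and 98.6% for H2A.Zac, 70% and 89.4% for H2A.Z, and 81.8% and 68.8% for FLAG. At a q of 1e-05 or less they were 85.4% and 22%, 58.6% and 82%, 9.20% and 13.6%, and 10.4% and 15.6%, in the same order. Covered-length ratios as deposited were 0.849 for H3K27ac, 1.69 for H3K4me1, 0.542 for H2A.Zac, 0.432 for H2A.Z and 0.881 for FLAG, and at the strict limit 0.806, 4.76, 0.386, 0 and 0, against 0.829, 2.89, 0.492, 0.287 and 0.557 at a q of 0.05. On the overexpression list's 500 domains they were 0.939 for H3K27ac and 0.527 for H2A.Zac. The authors' highest fold gave median ratios of 0.773, 1.34, 0.678, 0.977 and 0.926 for H3K27ac, H3K4me1, H2A.Zac, H2A.Z and FLAG. Recovered reads over the genome average in place of that fold gave 0.743, 1.29, 0.560 and 0.923, and turned FLAG round at 1.11. Peaks with a q of 0.05 or less gave a highest fold of 0.984 for FLAG and turned H2A.Z round at 1.02. The cause was not tested. No paired analysis was possible because each group is 1 library, and for the same reason no replicate could be left out.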
